A study of Mus musculus with 6 samples.

Results

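In mouse macrophages, 858 sites of accessible chromatin were already open at rest and were more accessible with interleukin-4 (IL-4). They were selected on the measured accessibility itself, among 578591 sites in all and 534067 on chromosomes 1 to 19. A site was called open when both resting libraries, Untreated and DMSO, reached 1.3 CPM (read counts scaled to library size), which held for 91687 sites. It was called strengthened when the level plus 0.1 of the IL-4 library was 2-fold that of Untreated or more, and the level of DMSO + IL-4 likewise 2-fold that of DMSO. The 858 strengthened sites were 0.936% of the open sites, and that share is the result of the selection.

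The assay was ATAC-seq, where a transposase inserts sequencing adapters into exposed DNA, in bone marrow-derived macrophages (BMDMs) of wild-type mice labelled C57BL/6 (C57BL/6J in the growth protocol). The 6 libraries formed 6 groups of 1 library each. Untreated and DMSO received no IL-4, and the DMSO groups are taken here as the vehicle controls of latrunculin A. The groups IL-4 and DMSO + IL-4, with LatA + IL-4 and also MCSF + IL-4, received IL-4 at 20 ng/ml for 24 hours, the LatA group with latrunculin A at 1 μM and the MCSF group with macrophage colony-stimulating factor (MCSF, also called CSF1) at 100 ng/ml. Values in these last groups are given as those under latrunculin A and under MCSF. All cells had been differentiated in medium with 30% L929-conditioned medium, itself a source of CSF1, and were lifted for use after day 6. The age of the mice and the number pooled per culture are not given in the sources used here. Sites carry no gene names and no sequence, so the labelled cell type was not checked against marker genes.

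IL-4 signals through its receptor to the transcription factor STAT6, which enters the nucleus, binds DNA and recruits coactivators. In macrophages this sets off alternative activation, a program tied to tissue repair. Such a signal-dependent factor often acts at enhancers that lineage factors such as PU.1 and C/EBP have opened beforehand, where accessibility rises from a level that is already measurable, and at other places it opens chromatin that had been closed. Latrunculin A binds actin monomers and blocks the growth of actin filaments, and MCSF is the growth factor of the macrophage lineage and also remodels its cytoskeleton. The study asked whether altered actin dynamics change chromatin accessibility, and used both treatments with and without IL-4. In the 6 libraries described here both treatments were given only with IL-4.

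Reads in sites ranged from 12387332 in DMSO + IL-4 to 19889902 in Untreated. The resting minimum of 1.3 CPM stood for 27.1 reads in Untreated and 22.3 reads in DMSO. With 1 library per group there was no replicate spread to set a difference against, so each ratio compares 2 libraries and is given without a test. Intervals of 95% for ratios of reads are exact and measure counting error only. Those for medians are taken from order statistics and measure the spread over sites, not counting error or variation between cultures. They treat sites as separate although neighbouring sites share a library and often a region.

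The strengthened sites were modest in Untreated and DMSO and stood high in all 4 libraries with IL-4. Their median level was 1.96 CPM in Untreated against 5.79 in IL-4, 2.45 in DMSO against 6.41 in DMSO + IL-4, 8.13 under latrunculin A and 8.73 under MCSF. These medians stood for 41, 91, 42, 80, 119 and 115 reads in the same order. Over all open sites the median hardly moved, from 2.30 CPM in Untreated and 2.51 in DMSO to 2.42 in IL-4, 2.41 in DMSO + IL-4, 2.53 under latrunculin A and 2.43 under MCSF. The selection fixed the first 4 of these values for the strengthened sites, while the treated libraries played no part in it.

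**Figure D1:**
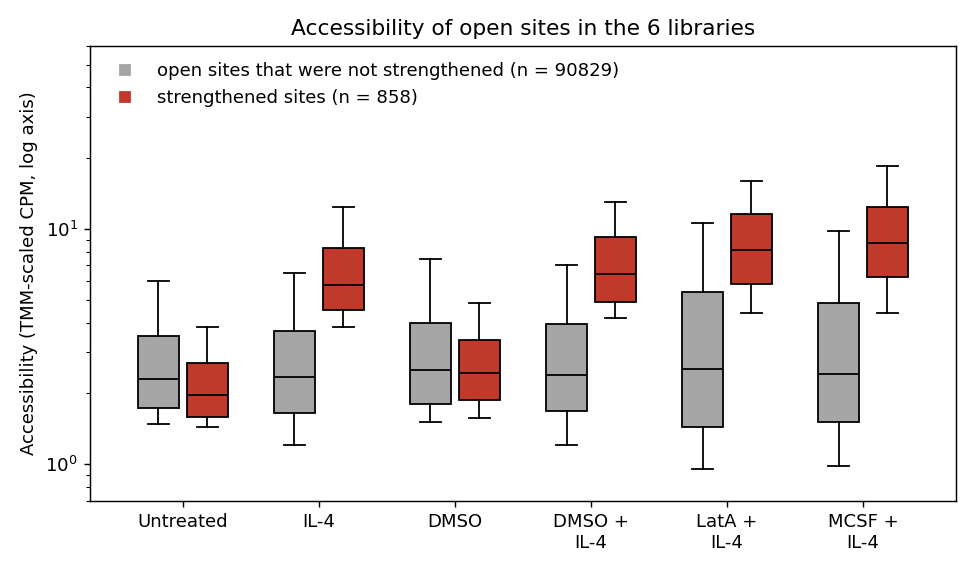
Accessibility in TMM-scaled CPM (vertical log axis) of 858 strengthened sites (red) and 90829 open sites that were not strengthened (grey) in the 6 libraries. Boxes span the quartiles with the median as a line, and whiskers reach the 10th and 90th percentiles. The red medians rise from 1.96 in Untreated and 2.45 in DMSO to between 5.79 and 8.73 in the libraries with IL-4, where the first 4 libraries were used to select the sites.

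Most strengthened sites began just above the resting minimum. The lower of the 2 resting levels was under 2 CPM at 482 sites and at least 4 CPM at 73. Strengthened sites made up 1.13% of open sites with a resting level of 1.3 to 2 CPM, 0.929% from 2 to 4 CPM and 0.448% at 4 CPM or more. Over all 858 sites the median log2 ratio was 1.41 for IL-4 to Untreated and 1.3 for DMSO + IL-4 to DMSO, or 2.67-fold and 2.46-fold. A rise of at least 3-fold in both pairs was seen at 120 sites and one of at least 4-fold in both at 29.

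**Figure D2:**
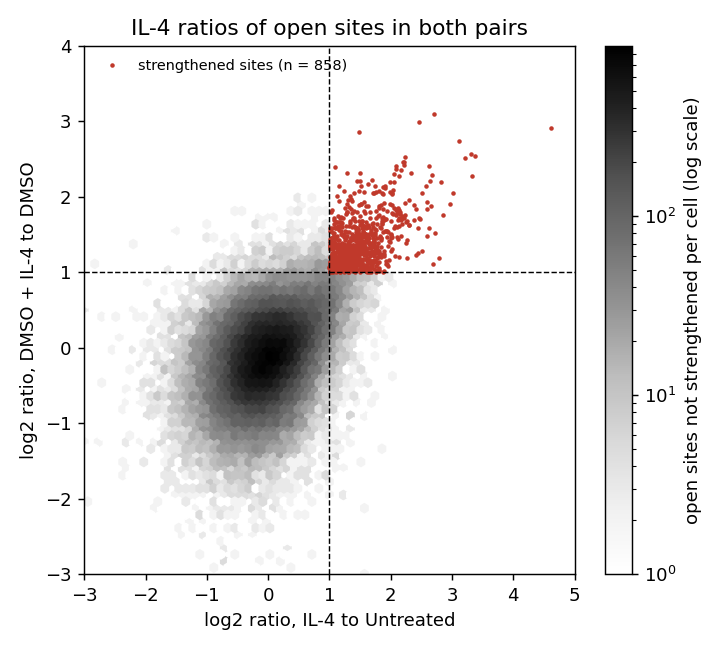
The log2 ratio of IL-4 to Untreated (horizontal) and of DMSO + IL-4 to DMSO (vertical) for open sites, with 0.1 CPM added. Grey cells count the open sites that were not strengthened on a log scale, red points are the 858 strengthened sites, and dashed lines mark the 2-fold minimum. A few sites beyond the axis limits are not drawn. Most red points lie close to the dashed lines, with medians of 1.41 and 1.3.

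At the edge of the selection the values on both sides were nearly alike. The member closest to the ratio minimum, chr17:45537846-45538728, had 42, 70, 39 and 58 reads in Untreated, IL-4, DMSO and then DMSO + IL-4. The closest open site outside, chr5:151385892-151386887, had 43, 69, 50 and 74 reads in the same libraries. At the resting minimum, the members closest to it had 23 reads in DMSO, and the sites just under it had 27 reads in Untreated. A site's membership there turned on a few reads.

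The IL-4 rise was then followed in the pair of libraries that had no part in choosing the sites. Of the 119673 sites with at least 1.3 CPM in Untreated, 2949 rose at least 2-fold with IL-4. At those 2949 sites the median log2 ratio of DMSO + IL-4 to DMSO was 0.74 (95% interval 0.71 to 0.77), against -0.05 over all 119673. A rise of at least 2-fold in that second pair was found at 33.2% of them, where 4.23% of all 119673 sites had one. Chosen the other way, 2270 of 125532 sites with at least 1.3 CPM in DMSO were at least 2-fold higher in DMSO + IL-4. Their median log2 ratio of IL-4 to Untreated was 1.15 (95% interval 1.11 to 1.19), against 0.05 over all 125532. At 57.6% of them the rise was at least 2-fold, beside 5.77% of all 125532 sites. The rise thus carried over to libraries that the choice did not use. It was smaller there than in the pair used for choosing, where the medians were 1.23 and 1.24.

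The site with the largest rise in its weaker pair lay at chr19:29077375-29078381 in the mm9 build. It held 43 reads in Untreated against 831 in IL-4, 123 in DMSO against 680 in DMSO + IL-4, 430 under latrunculin A and 480 under MCSF. These stand for 2.06, 52.8, 7.17, 54.5, 29.4 and 36.4 CPM. IL-4 was 25.6-fold above Untreated (95% interval 18.9 to 35.7) and DMSO + IL-4 was 7.60-fold above DMSO (6.26 to 9.28). The resting libraries differed as well, with DMSO 3.48-fold above Untreated (2.44 to 5.05). Both treated libraries stayed well above both resting libraries and below both IL-4 libraries. LatA + IL-4 was at 0.539 of DMSO + IL-4 (0.476 to 0.609), and MCSF + IL-4 at 0.689 of IL-4 (0.615 to 0.772).

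The sites ranked 2 to 6 all lay on chromosome 14. None of these 5 had a called peak in Untreated or in DMSO, so they counted as open by their level alone. At chr14:51805367-51805904 the level was 1.63 CPM in Untreated against 14.8 in IL-4, 1.87 in DMSO against 13.1 in DMSO + IL-4, 22.9 under latrunculin A and 18.2 under MCSF. The other 4, starting at 44449070, 44497103, 44544789 and 44628193, lay within 100 kb of a neighbour among them and ran from 1.49 to 2.86 CPM in the resting libraries, from 14.0 to 18.2 in IL-4 and DMSO + IL-4, and from 22.3 to 30.5 under latrunculin A and MCSF. At all 5 of these sites both treated libraries were above both IL-4 libraries, unlike the chromosome 19 site.

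The remaining 4 of the 10 differed among themselves in the treated libraries. At chr9:16237189-16237768 the level was 1.49 CPM in Untreated against 8.65 in IL-4, 1.40 in DMSO against 11.8 in DMSO + IL-4, 6.01 under latrunculin A and 6.68 under MCSF. At chr11:40523265-40523898 it was 3.16, 16.4, 4.02, 20.5, 10.2 and 16.2 CPM in the same order, so that LatA + IL-4 was at 0.496 of DMSO + IL-4 (95% interval 0.402 to 0.609) while MCSF + IL-4 was at 0.990 of IL-4 (0.822 to 1.19). At chr16:58690313-58690967 it was 1.73, 11.1, 1.98, 11.0, 13.3 and 7.74 CPM, the opposite order of the treated libraries. At chr9:77304175-77304741 it was 2.16, 14.4, 2.74, 13.8, 15.6 and 13.7 CPM, and all 4 libraries with IL-4 were nearly level.

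**Figure D3:**
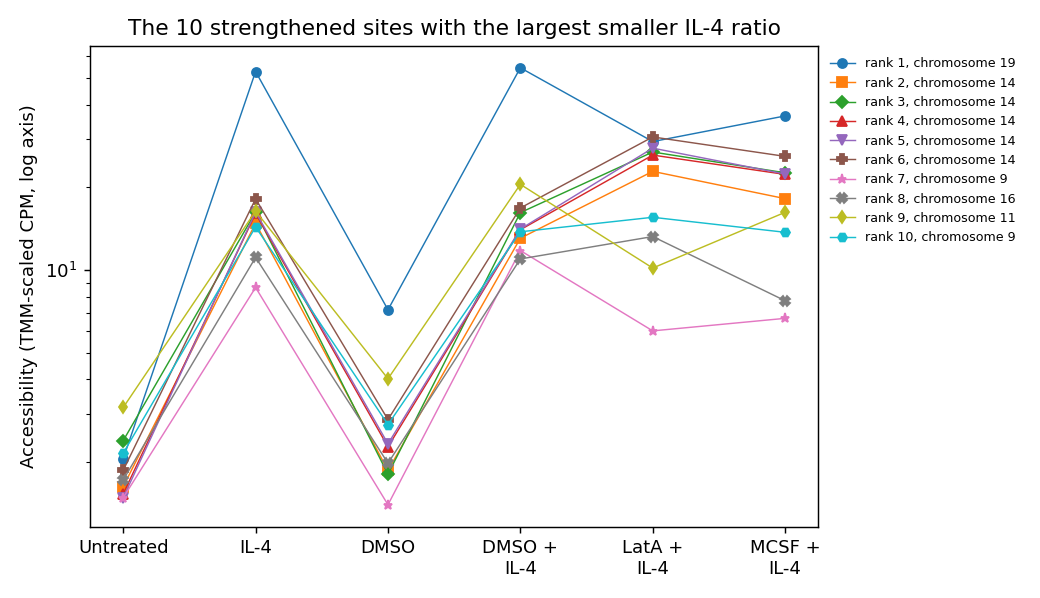
Accessibility in TMM-scaled CPM (vertical log axis) in the 6 libraries at the 10 strengthened sites with the largest smaller IL-4 ratio, 1 line per site. Lines only join values of the same site. All 10 sites are lower in Untreated and DMSO than in the 4 libraries with IL-4. The 5 sites of chromosome 14 are highest in LatA + IL-4, and the chromosome 19 site falls from 54.5 in DMSO + IL-4 to 29.4 under latrunculin A.

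The sites with the highest resting level showed the same pattern from a raised base. The strongest, chr8:26176920-26177794, measured 65.8 CPM in Untreated against 132 in IL-4, 69.0 in DMSO against 139 in DMSO + IL-4, 149 under latrunculin A and 123 under MCSF. It just passed the selection, at 2.01-fold and 2.02-fold, with all 4 libraries that received IL-4 between 123 and 149 CPM. The next, chr9:100999153-101000272, measured 11.6, 35.1, 11.7, 32.5, 45.7 and 48.3 CPM in the same order. A site on chromosome 18 measured 10.4, 24.4, 10.7, 26.7, 34.4 and 49.2 CPM. The other two, chr1:95802926-95803739 and chr1:95872025-95872849, lie within 100 kb of each other and had almost equal reads in every library, 209 and 216 in Untreated and 529 and 538 in IL-4, for example.

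With latrunculin A or MCSF added, accessibility remained above the resting level at most of these sites. LatA + IL-4 was above both resting libraries at 846 of 858 sites (98.6%, beside 46.1% of all open sites) and MCSF + IL-4 at 847 (98.7%, beside 40.1%). LatA + IL-4 was at least 2-fold above DMSO at 761 sites (88.7%, beside 7.89%), MCSF + IL-4 was at least 2-fold above Untreated at 792 (92.3%, beside 12.9%), and both held at 716 (83.4%, beside 4.65%). The resting libraries were low by selection, which raises these counts, so the comparison was repeated with sites chosen from the other pair. At the 2949 sites chosen without vehicle, LatA + IL-4 was at least 2-fold above DMSO at 60.1% (beside 8.56% of all 119673 sites) and at least 1.5-fold at 78.8%, where 21.3% of all 119673 sites were. At the 2270 sites chosen with DMSO, MCSF + IL-4 was at least 2-fold above Untreated at 70.3% (beside 15.3% of all 125532 sites) and at least 1.5-fold at 77.9%, where 29% of all 125532 sites were. At 2-fold both shares were below those of the 858 sites. The shares of all sites were larger where accessibility was stronger. At a mean of at least 5 CPM over the 6 libraries, the 2-fold share with latrunculin A was 71.4% of chosen sites, beside 14.9% of all. With MCSF it was 84.7%, beside 29.0%. Both treated libraries were within 1.5-fold of their resting library or below it at 8 of the 858 sites, beside 67% of all open sites.

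Against IL-4 without the treatment, more of the chosen sites were higher than lower. At the 2949 sites chosen without vehicle, the median log2 ratio of LatA + IL-4 to DMSO + IL-4 was 0.41 (95% interval 0.38 to 0.43), against 0.07 over all 119673 sites. Of these sites 34.4% were at least 1.5-fold higher and 6.58% at least 1.5-fold lower, beside 25.2% and 19.6% of all 119673. At the 2270 sites chosen with DMSO, the median log2 ratio of MCSF + IL-4 to IL-4 was 0.48 (95% interval 0.45 to 0.52), against 0.09 over all 125532 sites. Of these sites 43.7% were at least 1.5-fold higher and 9.82% lower, beside 25.7% and 17.2% of all 125532. Scaling to the reads outside the sites of at least 1000 reads, an alternative chosen after the data were seen, moved the median of all sites by -0.20 for both treatments. The medians of the chosen sites then lay 0.35 and 0.38 above that of all sites, against 0.34 and 0.40 with the deposited scale.

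How far this exceeded other sites depended on the level at which sites were compared. The treatment ratios rose with accessibility among all sites, from a median log2 ratio of LatA + IL-4 to DMSO + IL-4 of -0.07 at sites with 1.3 to 2 CPM in Untreated to 0.52 at sites with 4 CPM or more. At the sites chosen without vehicle it was nearly flat, at 0.39, 0.41 and 0.42 for Untreated levels of 1.3 to 2, 2 to 4, and 4 CPM or more. Compared at an IL-4 level of 2 to 4 CPM, the median was 0.42 at the 743 chosen sites and 0.09 at all 38317 sites of that level, and at 4 to 8 CPM it was 0.40 at 1583 chosen sites and 0.52 at all 14771. For MCSF + IL-4 to IL-4 the medians by DMSO level were 0.44, 0.54 and 0.37 at the chosen sites and -0.08, 0.05 and 0.54 at all sites. At a DMSO + IL-4 level of 2 to 4 CPM they were 0.37 at the 601 chosen sites and 0.06 at all 40377, and at 4 to 8 CPM 0.54 at 1214 chosen sites and 0.53 at all 15624. At 8 to 16 CPM in the same IL-4-treated libraries the chosen sites had the lower median for both treatments, 0.37 against 0.52 with latrunculin A and 0.46 against 0.57 with MCSF, while at 16 CPM or more they had the higher one, 0.44 against 0.37 at 121 sites and 0.47 against 0.42 at 72. The share at least 1.5-fold lower depended on the level too. With latrunculin A it was 8.48% of the chosen sites against 16.2% of all sites at an IL-4 level of 2 to 4 CPM, 6.13% against 6.58% at 4 to 8 CPM and 4.98% against 3.71% at 8 to 16 CPM. With MCSF it was 13.3% against 14.6%, 8.98% against 5.96% and 8.09% against 2.79% in the same classes of DMSO + IL-4. At 16 CPM or more it was 7.44% against 7.81% with latrunculin A and 4.17% against 4.68% with MCSF. The wide excess of the medians over all sites was thus seen in the classes of weak accessibility. In the class of 2 to 4 CPM the levels were not matched, because the selection left no chosen sites at its lower end. The lowest level of a chosen site was 2.80 CPM in IL-4 (chosen without vehicle) and 2.81 CPM in DMSO + IL-4 (chosen with DMSO). The part of this in the excess was not tested. These level classes were set after the data were seen.

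**Figure D4:**
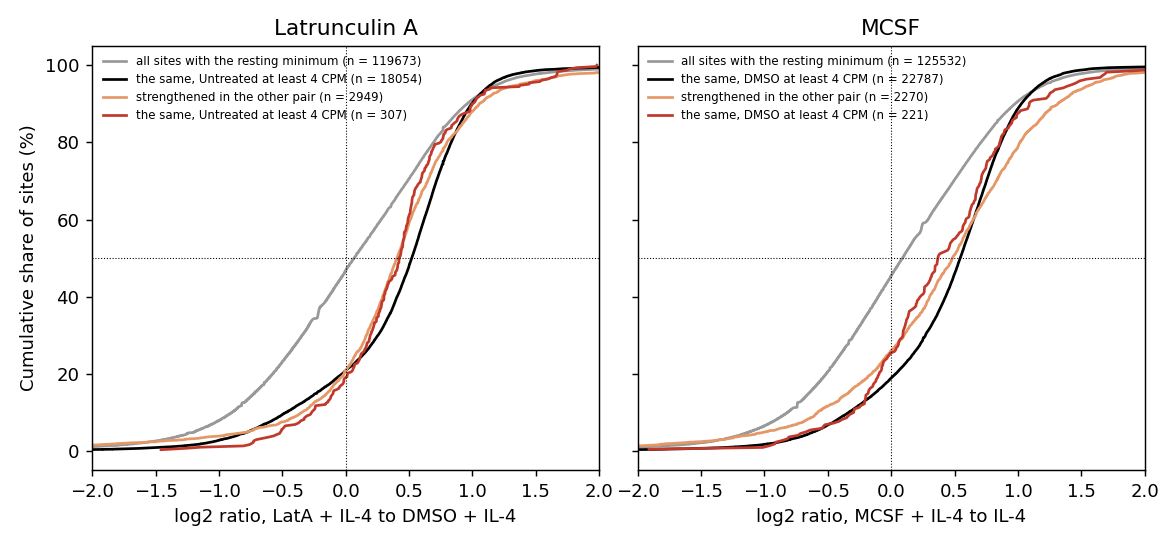
Cumulative share of sites (vertical, in percent) by the log2 ratio of LatA + IL-4 to DMSO + IL-4 (left) and of MCSF + IL-4 to IL-4 (right), drawn from -2 to 2. Grey lines are all sites with the resting minimum, orange lines the 2949 (left) and 2270 (right) sites that IL-4 strengthened in the pair of libraries not plotted, and black and red lines the same sets with at least 4 CPM in Untreated (left) or DMSO (right), where neither library is part of the plotted ratio. The orange lines lie to the right of the grey ones, with medians of 0.41 and 0.48, and at the median the red lines lie to the left of the black ones (0.42 against 0.52 with latrunculin A and 0.37 against 0.54 with MCSF).

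At the 858 sites themselves, DMSO + IL-4 and IL-4 were high by selection, so the ratios to them are given as a description. LatA + IL-4 was at least 1.5-fold above DMSO + IL-4 at 180 sites (21%, beside 28% of all open sites) and at least 1.5-fold below at 55 (6.41%, beside 16.2%). MCSF + IL-4 was at least 1.5-fold above IL-4 at 380 sites (44.3%, beside 25.8%) and at least 1.5-fold below at 44 (5.13%, beside 15.4%). These contrasts depended on level. At a mean of at least 5 CPM over the 6 libraries, LatA + IL-4 was higher at 22.8% of 531 strengthened sites, beside 49.2% of 18019 open sites. It was lower at 4.90%, beside 3.39%. MCSF + IL-4 was higher at 49.9%, beside 51.5%, and lower at 2.26%, beside 2.87%. With the other scale, which selected 896 sites, the shares higher and lower were 10.5% and 8.93% for LatA + IL-4, nearly even, and 29.6% and 8.37% for MCSF + IL-4. Both were higher at 81 sites (9.44%, beside 14.4%) and both lower at 10 (1.17%, beside 4.58%). The most frequent combination past the threshold was MCSF + IL-4 higher with LatA + IL-4 within 1.5-fold, at 277 sites (32.3%, beside 10.3% of open sites). The ratios of the 2 treatments were only loosely related across the 858 sites, with a Pearson correlation of 0.13 against 0.39 over 90829 other open sites. These are correlations across sites, which share the same 4 libraries. The 2 sets differed in other ways as well. The interquartile range of the ratio was 0.53 against 1.01 with latrunculin A and 0.70 against 0.97 with MCSF. Among the other open sites both ratios also rose with the resting level. Their medians there went from -0.04 and -0.08 at 1.3 to 2 CPM to 0.56 and 0.55 at 4 CPM or more.

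A count test was added after the data were seen. All 126433 sites that averaged 20 recovered reads or more per library were fitted with edgeR as a sum of IL-4, DMSO, latrunculin A and MCSF effects. The fit counts LatA + IL-4 as a library with DMSO and assumes that IL-4 acts alike with and without DMSO. It leaves 1 residual degree of freedom. At a Benjamini-Hochberg adjusted p under 0.05, 3 of the 858 sites were higher with latrunculin A (0.350%, beside 0.214% of all sites tested) and 14 lower (1.63%, beside 0.278%). With MCSF 21 were higher (2.45%, beside 0.469%) and 7 lower (0.816%, beside 0.291%). Each treatment effect rests on 1 library and is set against IL-4 libraries that were high at the 858 sites by selection, which by itself raises the calls lower, so nothing is read from these counts about the 858 sites. For the IL-4 effect, which the selection had used, 849 sites were called higher (99%, beside 3.93%). The choice of sites largely fixed that share in advance, so it is no test of the IL-4 rise and nothing is read from it. The fit set its own scale over the tested sites, under which the median effect over open sites was -0.08 for latrunculin A and -0.11 for MCSF on the log2 scale, beside 0.04 and 0.31 at the 858 sites.

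Set directly against each other, LatA + IL-4 and MCSF + IL-4 are libraries that the selection did not use. The median log2 ratio of LatA + IL-4 to MCSF + IL-4 was -0.07 at the 858 sites (95% interval -0.13 to -0.04) and 0.06 over all open sites. LatA + IL-4 was at least 1.5-fold higher at 112 sites (13.1%, beside 14.8% of open sites), and MCSF + IL-4 was at least 1.5-fold higher at 183 (21.3%, beside 11.7%). Of these 2 groups only the latrunculin A cells are taken to have received DMSO, which their label does not name. Between the resting libraries the median log2 ratio of DMSO to Untreated was 0.25 at the 858 sites and 0.15 over all open sites. The treatments and the vehicle cannot be told apart in the ratio of LatA + IL-4 to MCSF + IL-4. For comparison, at 853 sites that were under 1.3 CPM at rest and that IL-4 opened, the median log2 ratio of LatA + IL-4 to MCSF + IL-4 was -0.18.

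**Figure D5:**
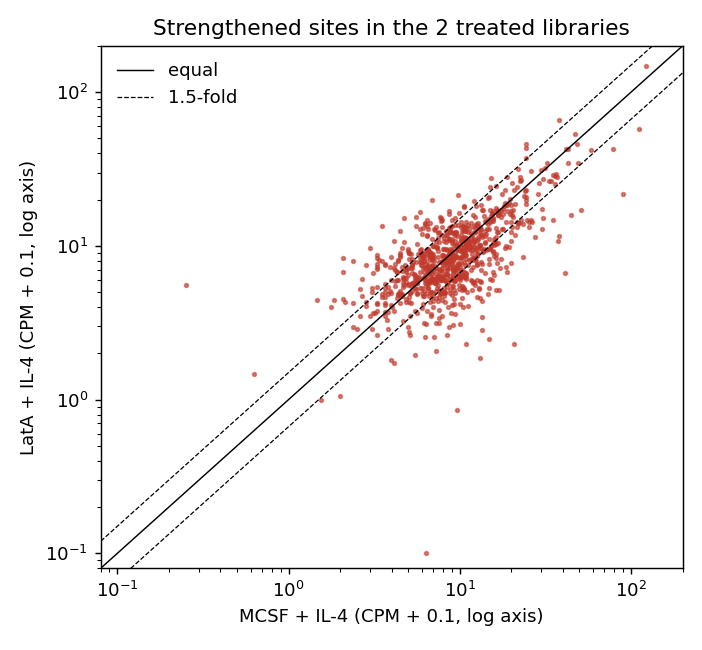
Accessibility of the 858 strengthened sites in MCSF + IL-4 (horizontal) and LatA + IL-4 (vertical), both as CPM + 0.1 on log axes, 1 point per site. The solid line marks equal levels and the dashed lines 1.5-fold. Below the lower dashed line lie 183 sites and above the upper one 112, and the lowest point is a site with 0 reads in LatA + IL-4.

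At a few sites 1 treated library lay far below the other libraries with IL-4. At chr1:134245578-134246416 there were 41 reads in Untreated against 81 in IL-4, 31 in DMSO against 51 in DMSO + IL-4, 0 under latrunculin A and 82 under MCSF. The 95% counting interval of LatA + IL-4 ran up to 0.0414 of MCSF + IL-4 and 0.148 of DMSO. At chr17:63399840-63400841 the reads were 31, 98, 24, 52, 11 and 126 in the same order. At chr2:5239533-5240416 they were 74, 185, 52, 182, 32 and 271. The ratio of LatA + IL-4 to DMSO was 0.537 (0.237 to 1.14) at the second site and 0.721 (0.449 to 1.14) at the third, so that a level equal to DMSO lay within counting error at both. MCSF + IL-4 was at 1.21 of IL-4 (0.878 to 1.66), 1.53 (1.17 to 2.02) and 1.75 (1.44 to 2.12) at the 3 sites.

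The reverse was seen at chr8:96731052-96731400, with 50 reads in Untreated against 80 in IL-4, 31 in DMSO against 50 in DMSO + IL-4, 80 under latrunculin A and 2 under MCSF. LatA + IL-4 was 36.0-fold above MCSF + IL-4 there, with a counting interval of 9.65 to 302. At chr14:15675350-15676040 the reads were 62, 142, 55, 125, 196 and 45 in the same order, a ratio of 3.92 (95% interval 2.82 to 5.55). The site at chr17:86472561-86473048 differed by its height in MCSF + IL-4, with 2.54 CPM in Untreated against 12.6 in IL-4, 4.90 in DMSO against 11.3 in DMSO + IL-4, 6.56 under latrunculin A and 41.1 under MCSF.

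The pair of sites lowest in both treatments fell below both resting libraries. At chr9:82704205-82705097 the level was 1.87 CPM in Untreated against 4.13 in IL-4, 2.80 in DMSO against 5.93 in DMSO + IL-4, 1.37 under latrunculin A and 0.531 under MCSF. LatA + IL-4 was at 0.230 of DMSO + IL-4 (95% interval 0.133 to 0.382) and MCSF + IL-4 at 0.129 of IL-4 (0.0497 to 0.280). At chr3:69784105-69784410 the level was 2.73, 6.17, 2.68, 5.53, 0.888 and 1.44 CPM in the same order. At the opposite end, chr8:26112169-26113575 measured 6.18, 19.6, 6.36, 17.6, 53.5 and 46.7 CPM. There accessibility was 3.18-fold and 2.77-fold higher with IL-4 in the pairs without and with DMSO, and higher again by 3.03-fold with latrunculin A (2.61 to 3.54) and by 2.38-fold with MCSF (2.07 to 2.74).

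The peak lists, called by the authors on each library, held most of these sites before IL-4, as they did most other open sites. A called peak overlapped the site, by at least 1 bp, at 816 of 858 strengthened sites in Untreated (95.1%, and 95.1% of the other open sites) and at 812 in DMSO (94.6%, beside 92.0%), and in both at 803 (93.6%, beside 88.7%). At 33 sites (3.85%, beside 1.57%) neither resting library had one, although both levels were at least 1.3 CPM. A peak was called at 854 sites (99.5%) in LatA + IL-4 and at 855 (99.7%) in MCSF + IL-4, the libraries outside the selection, beside 75.5% and 75.8% of the other open sites. Those other sites were weaker, with medians of 2.53 and 2.43 CPM in these libraries. Of 18019 open sites with a mean of at least 5 CPM, 531 were strengthened. Among the rest, 17292 had a peak in both DMSO + IL-4 and LatA + IL-4, and 17338 in both IL-4 and MCSF + IL-4. The median fold enrichment of the peak over its local background was 5.99 in Untreated, 6.99 in DMSO, 12.9 in IL-4, 13.1 in DMSO + IL-4, 14.0 under latrunculin A and 13.6 under MCSF.

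At most sites the peak summit with IL-4 lay close to the resting one. It differed by a median of 22 bp between Untreated and IL-4, and by 23 bp between DMSO and DMSO + IL-4, at 816 and 812 strengthened sites with a peak in both libraries. The summits were within 50 bp of each other at 66.3% and 69.6% of them and over 150 bp apart at 12.6% and 11.7%. Between Untreated and DMSO, neither of which received IL-4, the median shift was 20 bp. With IL-4 the median shift was 43 and 38 bp at all other open sites with a peak in both libraries, and 14 bp in both pairs at those with a mean of at least 5 CPM. Strengthened sites were of ordinary width, with a median of 641 bp against 649 bp at other open sites, and wider than the 512 bp of the sites that IL-4 newly opened. The widest, chr12:117486865-117490457, spanned 3593 bp and measured 5.56 CPM in Untreated against 17.2 in IL-4, 7.99 in DMSO against 16.8 in DMSO + IL-4, 11.7 under latrunculin A and 20.9 under MCSF.

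Strengthened sites had another strengthened site nearby more often than other open sites did. Another strengthened site was found within 100 kb of 27.3% of them, whereas 8.63% of other open sites had a strengthened site within that distance. Within 10 kb the shares were 7.46% and 1.12%. By chromosome the share of open sites that were strengthened ran from 0.623% on chromosome 15 to 1.62% on chromosome 14, which held 76 of them.

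Part of the excess on chromosome 14 came from 3 stretches of under 100 kb. The stretch chr14:51800335-51882725 held 9 strengthened sites among 15 open ones, chr14:44418699-44497539 held 7 of 16 and chr14:44532774-44628630 held 7 of 15. Outside these stretches no 100 kb window held more than 3. Without these stretches, 53 of 4644 open sites on chromosome 14 were strengthened, or 1.14%. At their 23 sites the median log2 ratio was 2.11 for IL-4 to Untreated and 1.67 for DMSO + IL-4 to DMSO. It was 0.68 for LatA + IL-4 to DMSO + IL-4 and 0.46 for MCSF + IL-4 to IL-4, against 0.29 and 0.52 over all 858 sites.

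Within those stretches several sites had almost the same reads as a neighbour. The sites starting at 44449070 and 44497103 had 31 and 32 reads in Untreated, as well as 256 and 253 in IL-4, then 40 and 39 in DMSO compared with 176 and 175 in DMSO + IL-4, 407 and 384 under latrunculin A and 295 and 294 under MCSF. In all, 46 strengthened sites, 16 of them in the 3 stretches, had another within 500 kb whose reads were within 20% in every library. That was 5.36% of the strengthened sites, and 15.4% of the other open sites had such a partner among themselves, a far larger pool to find one in. The study's alignment reported up to 10 places per read, so copies of a sequence could hold the same reads. The part of this in the values of these sites was not tested, and such sites are not independent of each other.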

How the data were processed

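ATAC-seq was performed on 6 libraries of BMDMs, 1 per group, grouped by the labels. Paired-end reads of 38 bases were trimmed with Cutadapt, aligned to mm9 with Bowtie2, which reported up to 10 alignments per read, and cleared of duplicates with Picard, per the study's methods. Peaks were called with macs2 on each library (q 0.05, shift -75, extension 150) with featureCounts then counting reads in each site. How reads aligned to several places were counted is not given in the sources used here.

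The deposited table holds the signal of every site in each library, made by the authors as CPM scaled with TMM factors in edgeR. Whole reads were recovered from it for 100% of values in each library, within 0.01. Depth was 12387332 to 19889902 reads in sites. The deposited peak lists give a fold enrichment (ratio) and a −log10 q-value, and both the score and the −log10 p-value in the deposited lists were not used further. Summit positions were also taken from them.

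Ratios were log2 of values with 0.1 added. Ratios carry no test, with 1 library per group. The added count test used edgeR 4.0.16 (TMM, quasi-likelihood, R 4.3.3) on the recovered reads. Intervals of 95% for ratios of reads are exact and cover counting error only. Those for shares (Clopper-Pearson) and medians run over sites and treat sites as separate. The scripts (Python 3.11.15, numpy 2.4.6, pandas 2.3.3, scipy 1.17.1) were tested on simulated data.

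The strengthened sites, their comparisons and the rule for naming sites were chosen with earlier results of these data known. Named were the 10 sites with the largest smaller IL-4 ratio, the 5 with the highest resting level, the 5 extremes at each end of the LatA to MCSF ratio and of both treatment ratios together, sites next to the thresholds, the widest site and the 3 densest windows, of which the clearest are printed. The files use mm9 (a site on chromosome 1 ends at 197195351, past the 195471971 bases of GRCm38), and the reference at hand is GRCm38. Genes, sequences and motifs at the sites are therefore not analysed here.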

Additional observations from a re-analysis of the deposited data

Results flagged for a closer look

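Chromosome X lay outside the selection. There 19 of 6753 sites that met the resting minimum in both resting libraries (0.281%) were at least 2-fold higher in both IL-4 pairs, a lower share than the 0.936% of chromosomes 1 to 19. They stand here because they are a signal in data the comparisons did not use. At chrX:156175240-156175695 the level was 1.49 CPM in Untreated against 4.26 in IL-4, 2.10 in DMSO against 6.25 in DMSO + IL-4, 7.17 under latrunculin A and 6.90 under MCSF. The sites chrX:136116321-136116933 and chrX:136121579-136122255 lie within 100 kb of each other and had 45 and 47 reads in Untreated, 103 and 92 in IL-4, 138 and 143 under latrunculin A and 155 and 159 under MCSF.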

How the results depend on the processing

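No paired analysis was possible because each group has 1 library, so no replicate number is shared and no replicate could be left out of a group. The added edgeR fit kept DMSO as a term, and the pairs of IL-4 libraries were each used alone. Of 85 recomputed values, of which 19 come from settings chosen after the data were seen, 52 stayed within 1.5 times (for the number of sites) or within the 95% interval, 31 moved beyond it and 2 changed sign. Another scale or added value gave 605 to 1006 strengthened sites. The count was 3145 with a ratio minimum of 1.5, 120 with 3, 376 with a resting minimum of 2 CPM, 2248 with 0.65 CPM, 2949 from the pair without vehicle alone and 2270 from the pair with DMSO alone.

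The latrunculin A median was 0.36 on total reads, 0.38 with 0.5 added, 0.43 at a mean of at least 5 CPM, 0.32 with a ratio minimum of 3 and 0.21 scaled outside the sites of at least 1000 reads. The MCSF median was 0.41 on total reads, 0.59 at a mean of at least 5 CPM and 0.27 scaled outside the sites of at least 1000 reads. Less the median of all sites, the latrunculin A value was 0.25 with a ratio minimum of 3. At a mean of at least 5 CPM this difference was -0.14 for latrunculin A and -0.0085 for MCSF, so it changed sign for both, and it was -0.22 for LatA + IL-4 to MCSF + IL-4. The filter takes its mean over all 6 libraries. The sites it kept had a median Untreated level of 2.78 CPM among those chosen without vehicle and 5.94 CPM among all sites. At that filter the IL-4 ratio in the pair not used for choosing was 0.85 (DMSO) and 1.39 (without vehicle).

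With a fold threshold of 2, the shares of strengthened sites higher and lower were 3.26% and 2.80% with latrunculin A (9.21% and 5.66% of all open sites), 15.2% and 1.98% with MCSF (8.37% and 5.10%), and 5.13% and 8.74% for LatA + IL-4 to MCSF + IL-4 (4.94% and 3.65%). Scaled outside the sites of at least 1000 reads they were 10.5% and 8.93% with latrunculin A and 29.6% and 8.37% with MCSF, and on total reads the MCSF share higher was 38.6%. Peaks with a −log10 q of at least 5 overlapped 93.2% of sites in Untreated and 92.9% in DMSO, beside 84.6% and 79.5% of other open sites. The cause of these shifts was not tested. Depth limits what a single site can show, since a site at the resting minimum rests on 22.3 to 27.1 reads.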
